A study of Rattus norvegicus with 6 samples.

Results

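Heme synthesis and breakdown were followed through 10 genes, taken by name from the deposited table: the synthesis enzymes Alas1, Uros, Urod, Cpox, Ppox and Fech, and the breakdown enzymes Hmox1, Hmox2, Blvra and Blvrb. All 10 were found among the 34257 genes of the table, and all 10 were abundant enough to be tested. The cells were cultured ventricular cardiomyocytes isolated from newborn rats, given either perhexiline, an antianginal drug that inhibits carnitine palmitoyltransferase 1, at 1 µM for 24 h (3 libraries), or vehicle (3 libraries). No genotype, strain or age beyond neonatal is given for either group. The vehicle is not named, and the duration of its exposure is not stated. The labels do not say whether replicates came from separate cultures or animals, so the tests weigh the drug against the spread among these 6 libraries, which may be technical.

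Heme is an iron-holding ring that carries oxygen in myoglobin and electrons in the cytochromes of the respiratory chain, both of which heart muscle holds in quantity. Its synthesis starts in the mitochondrion, where Alas1 joins glycine and succinyl-CoA, passes through the cytosol, and ends in the mitochondrion, where Fech inserts iron. Heme oxygenase, made as an inducible form from Hmox1 and a constitutive form from Hmox2, opens the ring and releases iron, carbon monoxide and biliverdin, which the biliverdin reductases turn into bilirubin. Hmox1 is a textbook target of the transcription factor NRF2 and is repressed by BACH1, a protein that senses heme.

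The libraries held 13616252 to 16702523 fragments, recovered from the deposited FPKM (fragments per kilobase of gene, scaled to library depth), which gave the 10 genes between 110 fragments (Uros) and 11445 fragments (Hmox1) per library. Cardiomyocyte markers such as Actc1 and Tnnt2 dominated the marker lists, with 11 genes summing to 16297 to 23894 FPKM, against 54.5 to 104 FPKM for 13 macrophage markers, 1006 to 1087 for 9 fibroblast, 65.8 to 89.1 for 7 smooth muscle and 13.5 to 16.0 for 7 endothelial markers. In the vehicle group replicate 3 stood apart: 10 of 11 cardiomyocyte markers were lowest there among the vehicle libraries, and 21 of 23 tested NRF2 targets other than the heme genes were highest there, where 35.4% and 35.6% of all tested genes were lowest and highest. Fewer cells of a type and less RNA per cell cannot be told apart in such samples.

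**Figure D1:**
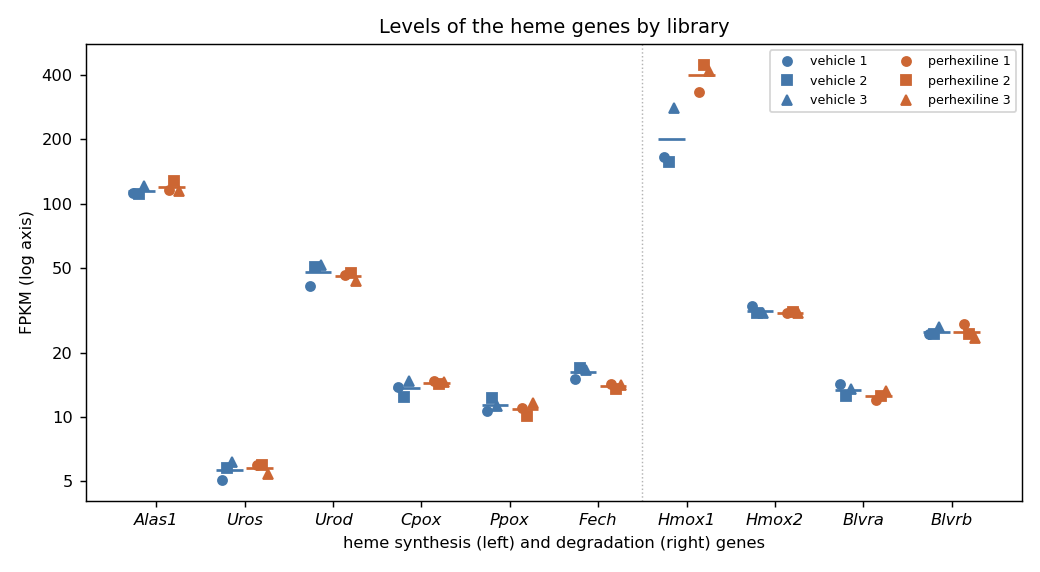
FPKM of the 10 heme genes (log axis) in each vehicle library (blue) and each perhexiline library (orange), with the mean of each group as a line and synthesis genes left of the dotted line. Hmox1 is the gene whose groups separate most, at 156 to 279 FPKM with vehicle and 333 to 447 FPKM with perhexiline.

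Of the breakdown enzymes, only Hmox1 passed the test, and it rose. Hmox1 stood at 165, 156 and 279 FPKM in vehicle replicates 1, 2 and 3, and at 333, 447 and 419 FPKM in perhexiline replicates 1, 2 and 3. The groups did not overlap, but the lowest perhexiline library was only 1.19 times the highest vehicle library, vehicle replicate 3, which held 1.79 times as much Hmox1 as the lowest vehicle library. The mean went from 200.2 ± 68.6 to 399.6 ± 59.4 FPKM (SD, n = 3 per group), and the log2 difference on the log2(FPKM + 1) scale was 1.03 ± 0.22 (a 2.00-fold rise of the mean; SE; 95% interval 0.52 to 1.54; limma adjusted p = 0.0377). Hmox1 (chromosome 19, 14508616 to 14515456 by the deposited coordinates, for which the sources used here name no build) was not the gene with the largest difference. On the log2(FPKM + 1) scale, which understates changes of low genes, 105 of all 13460 tested genes had a larger absolute difference. Of the 478 genes called higher, 41 had a larger rise on that scale. Without vehicle replicate 3 the log2 difference was 1.30 ± 0.12 (adjusted p = 0.0125). Dropping vehicle replicate 1 or 2 ended the call (adjusted p = 0.12 and 0.11). Dropping perhexiline replicate 2 or 3 also ended it (0.13 and 0.119). Across all fits without 1 library the difference stayed between 0.88 and 1.30. Over all tested genes, the fits that lost Hmox1 called 117, 142, 125 and 87 genes, in the order given, against 896 with every library. Calls of other genes were thus lost in these fits too. What part the spread of Hmox1 among the vehicle libraries had in the loss of its own call was not tested.

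In the same comparison, 1 of the 10 heme genes was called higher and 0 lower at an adjusted p of 0.05, against 6.66% of all 13460 tested genes called in either direction (3.55% higher, 3.11% lower). The share of calls that were higher was 53.3%, and it was 71.0% under total-fragment scaling and 42.4% under upper-quartile scaling. At an unadjusted p of 0.05 the count was 2 of 10, Hmox1 and Fech, against 25.7% of all genes. The groups did not overlap for 2 of 10, again Hmox1 and Fech, against 31.9% of all genes (17.0% with perhexiline higher). The median log2 difference of the 10 was -0.02, beside 0.01 for all tested genes.

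Hmox2, which makes the constitutive heme oxygenase, did not pass the test. Hmox2 (chromosome 10, 10990034 to 11035484) stood at 33.0, 30.7 and 30.7 FPKM in the vehicle libraries and at 30.6, 30.9 and 30.8 FPKM in the perhexiline libraries. The groups overlapped, the coefficient of variation over the perhexiline libraries was 0.45%, and the 95% interval of the log2 difference ran from -0.15 to 0.09 (-0.03 ± 0.05 SE; limma adjusted p = 0.757). The ratio of Hmox1 to Hmox2, which is free of library scaling, was 5.01, 5.09 and 9.11 with vehicle and 10.9, 14.4 and 13.6 with perhexiline. The ratios did not overlap between the groups, and the exact two-sided permutation p was 0.1, the smallest that 3 against 3 libraries allow. Of 5 ratios between these genes, all examined after the values were seen, 4 gave this p, and Blvrb over Blvra gave 0.5, so none could pass a correction. Each of the 4 holds Hmox1 or Fech, the genes whose own groups did not overlap, so these ratios add no separate evidence. Hmox1 made up 69.7% to 79.8% of the summed FPKM of the 4 breakdown genes with vehicle and 82.6% to 86.8% with perhexiline.

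The biliverdin reductases showed no difference past the threshold. Blvra (chromosome 3, 119561290 to 119577806), the reductase that makes the main bilirubin isomer of adults, stood at 14.2, 12.6 and 13.5 FPKM with vehicle and 11.98, 12.5 and 13.2 FPKM with perhexiline. Its groups overlapped, and its log2 difference was -0.09 (95% interval -0.25 to 0.07; limma adjusted p = 0.451). Blvrb (chromosome 1, 84256159 to 84274075), which also reduces flavins, stood at 24.5, 24.6 and 26.3 FPKM with vehicle and 27.3, 24.5 and 23.4 FPKM with perhexiline, so that perhexiline libraries held both the highest and the lowest value (interval -0.17 to 0.16; limma adjusted p = 0.976). Both reductases rested on 210 to 538 fragments per library, less than the 834 to 1045 of Hmox2.

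**Figure D2:**
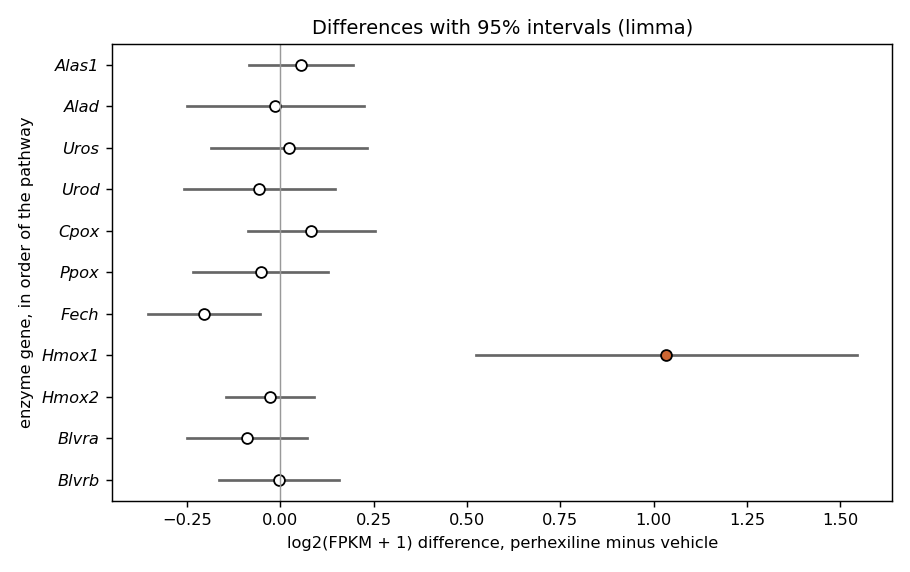
Log2(FPKM + 1) difference between perhexiline and vehicle for Alad, the 6 synthesis enzymes and the 4 breakdown enzymes, with limma's 95% interval; filled points passed an adjusted p of 0.05. Hmox1 at 1.03 is the filled point, and Fech at -0.21 has an interval below 0 but did not pass.

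None of the 6 synthesis enzymes among the 10 genes passed the test over all genes. Of these 6, limma called 0, with 1 (Fech) at an unadjusted p of 0.05 and 0 when limma-voom was run on fragments instead, and their log2 differences ran from -0.21 to 0.08. Alas1 (chromosome 8, 114927722 to 114940177), the first and rate-limiting enzyme outside the erythroid lineage, stood at 112, 111 and 121 FPKM with vehicle and 116, 127 and 115 FPKM with perhexiline. The groups overlapped, and the 95% interval of the log2 difference was -0.08 to 0.19 (limma adjusted p = 0.602). Hmox1 thus stood at 1.41 to 2.30 times Alas1 with vehicle and at 2.87 to 3.66 times Alas1 with perhexiline, both per kilobase.

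No middle step passed the test. Uros (chromosome 1, 205756640 to 205777167), which closes the ring, stood at 5.08, 5.77 and 6.18 FPKM with vehicle and 5.94, 5.98 and 5.39 with perhexiline (interval -0.19 to 0.23). Urod (chromosome 5, 135855433 to 135859643), the decarboxylase that follows, stood at 41.3, 50.4 and 51.7 with vehicle and 46.3, 47.3 and 43.6 with perhexiline (interval -0.26 to 0.15). All perhexiline values of both genes lay inside the range of the vehicle libraries. Cpox (chromosome 11, 44039669 to 44049648), which works in the intermembrane space of mitochondria, stood at 13.8, 12.4 and 14.8 FPKM with vehicle and 14.8, 14.2 and 14.6 with perhexiline (interval -0.09 to 0.25). Ppox (chromosome 13, 89650094 to 89654244), the oxidase before the last step, stood at 10.7, 12.3 and 11.3 FPKM with vehicle and 11.02, 10.2 and 11.7 with perhexiline (interval -0.24 to 0.13). The groups overlapped for each of these 4 genes, with limma adjusted p between 0.511 (Cpox) and 0.899 (Uros). Over the 9 genes other than Hmox1, the outermost interval bounds were equal to 21.9% less and 19.1% more than vehicle, on the log2(FPKM + 1) scale.

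Fech (chromosome 18, 59941992 to 59975192), the enzyme that inserts iron and so makes heme, had the lowest difference of the 10. It stood at 15.1, 17.01 and 16.6 FPKM with vehicle and at 14.3, 13.5 and 14.1 FPKM with perhexiline. Every perhexiline library was below every vehicle library, a separation that 14.9% of all tested genes showed in this direction. The log2 difference was -0.21 ± 0.064 (SE; 95% interval -0.36 to -0.06), with an unadjusted p of 0.0137 and a limma adjusted p of 0.0972. The ratio of Alas1 to Fech, examined after the values were seen, was 7.42, 6.50 and 7.29 with vehicle and 8.13, 9.42 and 8.13 with perhexiline (exact two-sided permutation p = 0.1, the smallest possible).

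The promoters of Alas1 and Fech are shown because the 2 genes open and close the route and their ratio differed between the groups without overlap. RefSeq windows (build GRCr8) matched 8 of the 10 genes; Hmox1 and Cpox were not matched. Each sequence is the 250 bases before the annotated start, on the minus strand, at chr8:115768643-115768892 for Alas1 and chr18:60248526-60248775 for Fech. In Alas1 the capitals mark a match to the core bound by NRF1, a nuclear respiratory factor that controls mitochondrial genes (GCGCA, any 1 base, then GCGC, on either strand), and in Fech the capitals mark GC boxes (GGGCGG, either strand).
Alas1: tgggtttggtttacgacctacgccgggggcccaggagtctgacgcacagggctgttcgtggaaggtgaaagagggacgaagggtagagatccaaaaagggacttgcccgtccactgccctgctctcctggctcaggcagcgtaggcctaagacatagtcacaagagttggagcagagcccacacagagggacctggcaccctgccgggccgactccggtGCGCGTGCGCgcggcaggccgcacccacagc
Fech: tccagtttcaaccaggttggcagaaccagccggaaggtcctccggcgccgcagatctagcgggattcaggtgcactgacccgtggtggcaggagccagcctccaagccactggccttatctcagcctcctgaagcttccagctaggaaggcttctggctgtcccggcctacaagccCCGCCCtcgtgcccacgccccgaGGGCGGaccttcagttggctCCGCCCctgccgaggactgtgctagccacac
Of 33469 windows of this length, 3.75% held the NRF1 core and 30.5% a GC box. Among the 8 genes only Alas1 held an NRF1 core, at -31 to -22 from the start. Fech held 3 GC boxes, as did Urod, while Blvrb held 5 and Hmox2 had 1 in one of its windows. The 2 other motifs searched on both strands were the E-box (CACGTG), found in Urod and in 5.59% of all windows, and the antioxidant response element core (TGAC, any 3 bases, then GC), found in Blvra, in one window of Hmox2 and in 10.1% of all windows. Nrf1, the gene of the factor that binds the core, stood at 10.04 ± 1.32 and 11.4 ± 0.502 FPKM (limma adjusted p = 0.28), and was named after its values were seen. The coactivator Ppargc1a, which binds NRF1 and is known to raise Alas1, fell from 30.5 ± 1.11 to 24.7 ± 1.52 FPKM (log2 difference -0.29, adjusted p = 0.0365), and no fit that left out 1 of the 6 libraries kept this call (adjusted p up to 0.122). A match of letters describes the window and shows no binding.

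Synthesis enzymes outside the list of 10 were also measured. Alad, which makes porphobilinogen, stood at 14.7, 17.4 and 14.1 FPKM with vehicle and 16.2, 13.5 and 16.03 FPKM with perhexiline. The groups overlapped, with means of 15.4 ± 1.79 and 15.2 ± 1.55 FPKM (limma adjusted p = 0.949). Alas2, the erythroid form of the first enzyme, was at most 0.368 FPKM in any library and was not tested.

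**Figure D3:**
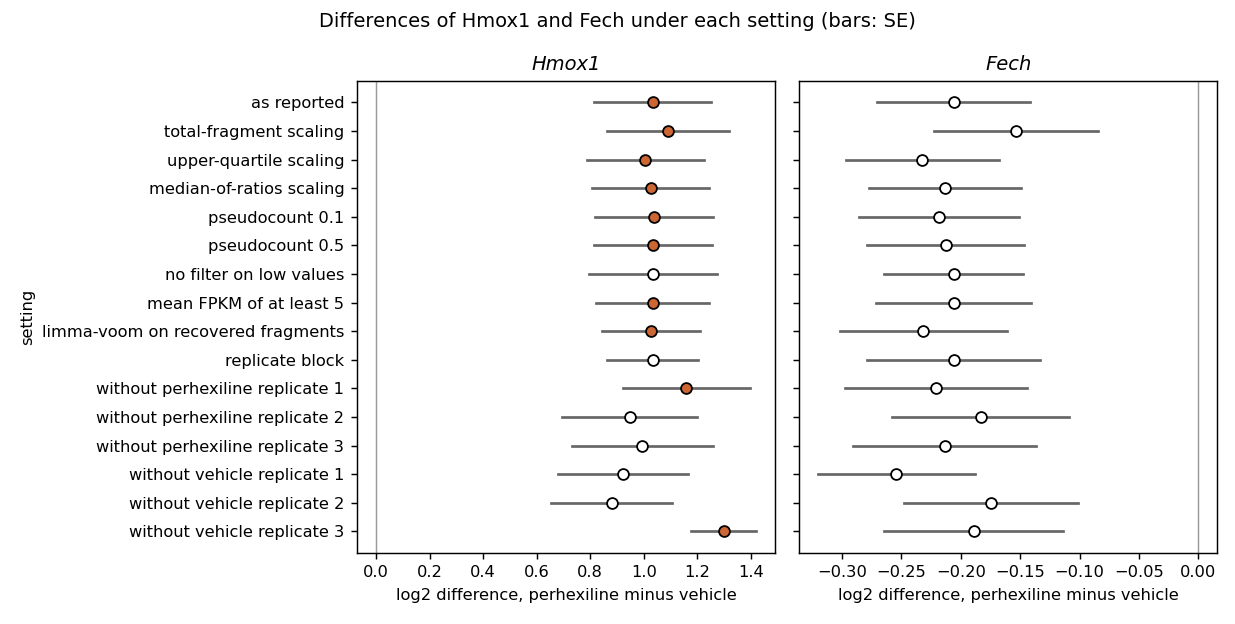
Log2 difference of Hmox1 (left) and Fech (right) with its standard error under each setting; filled points passed an adjusted p of 0.05, and the limma-voom values are on the log2 scale of fragments scaled to library size. Hmox1 stayed between 0.88 and 1.30 and passed in some settings, and Fech stayed between -0.25 and -0.15 and passed in none.

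The order of the levels was nearly the same in both groups. In vehicle cells Hmox1 was highest, followed by Alas1 at 115, Urod at 47.8 and Hmox2 at 31.4 FPKM, and the libraries of each of these genes were all above those of the next. Blvrb (25.1) came next, also without overlap. The libraries of Fech (16.3) and Alad (15.4) overlapped, as did those of Alad with Cpox (13.7), and Cpox with Blvra (13.4). Ppox (11.4) and Uros (5.67) came below them without overlap. In perhexiline cells Fech moved below Alad and Cpox, still overlapping Cpox at 14.0 against 14.5 FPKM.

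Beyond the 10 genes, 94 genes of the heme pathway lists were tested, Alad among them, of which 8 rose and 4 fell. Over all tested genes 3.55% were called higher and 3.11% lower, shares that stand beside this count and those of each list below. The electron donor of heme oxygenase was among the rises. Por, cytochrome P450 reductase, stood at 63.4, 60.4 and 62.4 FPKM with vehicle and 70.8, 81.9 and 76.8 with perhexiline, a 1.23-fold rise (limma adjusted p = 0.0358). It lost the call in 5 of 6 fits without 1 library, all but that without perhexiline replicate 1, with adjusted p up to 0.11. Of 18 tested genes for mitochondrial import and iron-sulfur or enzyme maturation, 0 rose and 1 fell, with a median of -0.08. The fall was that of Sucla2, a subunit of the enzyme that interconverts succinyl-CoA and succinate. Sucla2 went from 134 ± 2.41 to 102 ± 3.16 FPKM (limma adjusted p = 0.00928) and passed in all 6 fits without 1 library. Of the 18 genes, 6 had an unadjusted p under 0.05, against 25.7% of all tested genes. With limma-voom 1 of the 18 rose and 2 fell, and 696 and 866 over all tested genes.

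Among 6 tested heme and porphyrin transporters limma called 0, with 0 at an unadjusted p of 0.05 and 0 with limma-voom. Slc48a1, which moves heme out of lysosomes, stood at 46.9 ± 5.06 and 46.1 ± 1.25 FPKM, and the multidrug exporter Abcc1 at 11.6 ± 0.597 and 12.8 ± 1.31. Among 3 tested scavenging genes limma called 0 (1 at an unadjusted p of 0.05 and 1 with limma-voom), with the scavenger receptor Lrp1 at 50.1 ± 3.16 and 57.5 ± 6.34 and haptoglobin (Hp) at 3.48 ± 0.954 and 4.405 ± 0.486 FPKM. The third was Hpx, the gene of the heme-binding plasma protein hemopexin, named after its values were seen. Hpx stood at 0.418, 0.961 and 1.14 FPKM with vehicle and 1.77, 2.195 and 1.905 FPKM with perhexiline. The groups did not overlap, with a log2 difference of 0.70 ± 0.18 (limma adjusted p = 0.0565). Hpx passed under total-fragment scaling (adjusted p = 0.0466), with limma-voom (0.0292) and without vehicle replicate 3 (0.0486), and in no other of 14 alternatives (adjusted p up to 0.178). For the iron that heme oxygenase frees, 3 genes were tested and limma called 0 (0 at an unadjusted p of 0.05 and 0 with limma-voom). The ferritin light chain Ftl1 stood at 826, 950 and 1108 FPKM with vehicle and 1048, 1046 and 1045 with perhexiline, its highest value being that of vehicle replicate 3. The log2 difference of Ftl1 was 0.13 (adjusted p = 0.443), and 0.24 without that library (0.0973) and 0.03 without vehicle replicate 1 (0.871). The iron chaperone Pcbp2 stood at 128 ± 2.71 and 125 ± 5.54 FPKM. For Fth1, which encodes the ferritin heavy chain, every deposited value was 0. Whether this reflects absent transcript or reads not assigned to the gene was not tested, so the heavy chain remains unmeasured here. The 3 genes that modify or attach heme for cytochromes gave 0 calls (1 at an unadjusted p of 0.05 and 0 with limma-voom), with the cytochrome c heme lyase Hccs at 42.7 ± 1.38 and 37.9 ± 1.22 and the farnesyltransferase Cox10 at 29.96 ± 1.13 and 28.8 ± 2.75 FPKM.

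Of 15 tested regulators of Hmox1 and heme synthesis, 1 rose and 1 fell (Ppargc1a), with a median of 0.11. The differences of 13 were above 0, as were those of 7120 of all 13460 tested genes. With limma-voom the count was 5 rises and 1 fall, and 696 and 866 over all tested genes. Under total-fragment scaling it was 3 rises and 0 falls, and 815 and 333 over all tested genes. Maff, a small MAF protein that pairs with NRF2 and BACH1 on DNA, went from 13.6, 14.8 and 14.3 FPKM to 22.4, 24.6 and 21.4 FPKM (log2 difference 0.65 ± 0.068, limma adjusted p = 0.00805) and passed in all 6 fits without 1 library. The next 3 genes were named after their values were seen. Bach1 stood at 5.77, 6.19 and 6.76 FPKM with vehicle and 7.40, 9.13 and 10.1 with perhexiline (adjusted p = 0.0608), and Nfe2l2, the gene of NRF2, at 77.3, 73.9 and 86.8 and at 90.2, 102.7 and 94.3 (adjusted p = 0.0719). Mafg stood at 24.3 ± 2.68 and 30.5 ± 2.80 FPKM (adjusted p = 0.084). The groups did not overlap for any of the 3. Without vehicle replicate 3, Nfe2l2 (adjusted p = 0.0415) and Mafg (0.0481) passed, which made 3 rises and 0 falls among these regulators, and Bach1 passed without perhexiline replicate 1 (0.0306).

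The NRF2 targets other than the heme genes had 5 rises and 1 fall among 23 tested, with a median of 0.19. Of all tested genes 3.55% rose and 3.11% fell, with a median of 0.01. Ugdh, which makes UDP-glucuronate, went from 22.6 ± 0.16 to 30.5 ± 1.596 FPKM (limma adjusted p = 0.0127), the autophagy receptor Sqstm1 from 225 ± 36.9 to 366 ± 45.1 (0.0285), and Gclc, of glutathione synthesis, from 43.6 ± 4.38 to 59.4 ± 3.91 (0.029). The other rises were those of the reductases Akr1b8 (1.42-fold) and Cbr3 (1.44-fold), named to complete the count, and the exporter gene Abcc4 fell by 16.8%. Ugdh lost its call without vehicle replicate 1 (0.053), and Sqstm1 and Gclc kept theirs only without vehicle replicate 3 or perhexiline replicate 1 (adjusted p up to 0.101 in the other 4 fits). Leaving out any 1 library ended the calls of Cbr3 and Abcc4, and only the fit without vehicle replicate 3 kept that of Akr1b8. Sqstm1, like Hmox1, was highest in replicate 3 of the vehicle group, at 197, 211 and 267 FPKM. Nqo1, named after its values were seen, stood at 18.6, 19.0 and 41.0 FPKM with vehicle, with replicate 3 above all perhexiline libraries (27.7, 36.6 and 38.5). Nqo1 did not pass over all libraries (adjusted p = 0.356) and passed without vehicle replicate 3 (0.0298). Without that library the list had 9 rises and 0 falls, and all tested genes had 392 rises and 449 falls. The list had 0 rises when vehicle replicate 1 was left out, where all tested genes had 87. It had 1 when vehicle replicate 2, perhexiline replicate 2 or perhexiline replicate 3 was left out. All tested genes then had 100, 74 and 56 rises. What set vehicle replicate 3 apart was not tested.

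**Figure D4:**
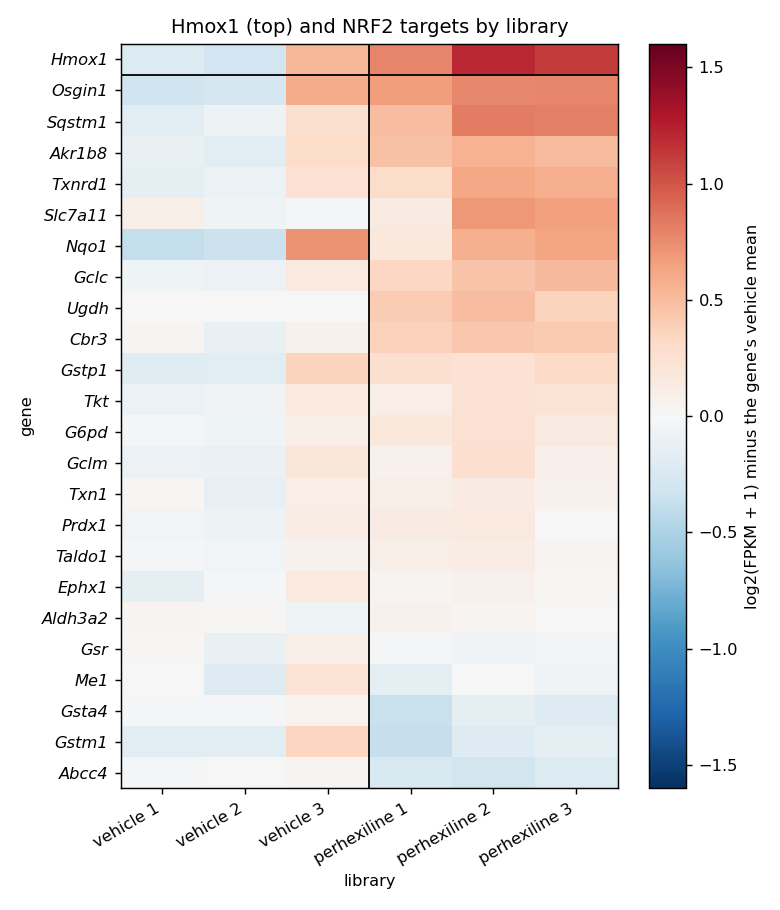
Log2(FPKM + 1) of Hmox1 (top) and the 23 tested NRF2 targets in each library, minus the mean of the gene's vehicle libraries; genes are sorted by their difference between groups. Vehicle replicate 3 is above the other vehicle libraries for Hmox1 and for 21 of the 23 targets.

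Of 19 tested genes of heme-binding proteins and of partners such as Cyb5r3 and Gucy1a1, 1 rose and 1 fell, with a median of -0.05. Without vehicle replicate 3 the count was 2 rises and 1 fall, and 392 and 449 over all tested genes. Without perhexiline replicate 1 it was 1 rise and 4 falls, and 416 and 424 over all tested genes. Ptgs2, a prostaglandin synthase that carries heme, went from 2.39, 1.51 and 1.98 FPKM to 4.95, 8.68 and 5.71 FPKM (limma adjusted p = 0.0189), and lost its call without vehicle replicate 2 (0.0631) or perhexiline replicate 3 (0.062). Cybb, the heme-holding subunit of the phagocyte NADPH oxidase, fell from 9.86 ± 0.965 to 6.67 ± 0.9 FPKM (adjusted p = 0.0395), a call kept without perhexiline replicate 1 and lost without any 1 of the other 5 libraries (adjusted p up to 0.114). The 13 macrophage markers, among which Marco was listed at 0, summed to 98.0 to 104 FPKM with vehicle. With perhexiline they summed to 54.5 to 84.3 FPKM. Of 10 tested markers 2 were lower and 0 higher, beside 3.11% and 3.55% of all tested genes. The part of these markers in the fall of Cybb was not tested. The 2 became 4 with limma-voom, and 0 when replicate 1 or 2 of the vehicle group, or replicate 2 or 3 of the perhexiline group, was left out. For cardiomyocyte markers the sums were 19793 to 23894 and 16297 to 18780 FPKM. Of these 11 markers 4 were lower, beside 3.11% of all tested genes. The fall of these markers stands beside all results above, and its part in them was not tested. The 4 became 7 without vehicle replicate 3, 8 with limma-voom, and 0 when any 1 of the same 4 libraries was left out. In those fits without 1 of the 4 libraries, 30 to 51 of all tested genes were called lower, against 418. Of 9 tested fibroblast markers 2 were higher and 2 lower, beside 3.55% and 3.11% of all tested genes. Without vehicle replicate 1, or perhexiline replicate 2 or 3, 0 of these 9 were called. Of 3 tested endothelial and 6 tested smooth muscle markers 0 were called.

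The genes most like Hmox1 over the 6 libraries were taken from 6985 genes with a mean of at least 10 FPKM, by Pearson's r of log2(FPKM + 1). Among the 5 most alike were Slc37a3 (r = 0.997), Rars (0.997), Ctdp1 (0.994) and Topors (0.993), none of which passed the test. By deviations from the group means, which leave out the drug effect, they were Pcnp (0.997), Surf6 (0.997), Pogz (0.996), Psmd5 (0.996) and Rars (0.995), so that Rars was on both lists. With 6 libraries sharing 2 groups and so many genes searched, such values describe these libraries only.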

How the data were processed

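Poly(A) RNA of 6 libraries was sequenced as dUTP-marked read pairs, per the labels' protocols. The authors deposited FPKM per gene and library, per the file headers; HISAT2 2.0.5 and DESeq2 are named in the submitters' processing notes with no role stated, while the sources used here give neither genome build, annotation nor counting program, nor whether strand was used. FPKM times gene length gave whole multiples of 1 step per library for 100% of positive values (tolerance 0.01), taken as fragments. The test was that of limma 3.58.1, run under R 4.3.3 on log2(FPKM + 1) values (two-sided, trended empirical Bayes, group as the only term), for genes that reached 1 FPKM in 3 or more libraries, with Benjamini-Hochberg adjustment over all 13460 genes and calls under 0.05. The scale understates changes of low genes; folds are ratios of mean FPKM. The procedure was tested on simulated counts with the same dispersion for every gene and no library set apart from its group. That test does not cover a spread such as that of Hmox1 with vehicle. Members and lists were chosen with earlier results of these data known. Of 119 pathway symbols, 113 were in the table and 104 were tested. Named were the 10 genes, the other synthesis enzymes, up to 4 called genes per further list by adjusted p or its 2 most abundant, and the 5 genes most like Hmox1; some genes that the rule names are not reported here. Alternatives were other scalings, filters, pseudocounts, limma-voom, a replicate block and each library left out.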

Additional observations from a re-analysis of the deposited data

How the results depend on the processing

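Hmox1 kept its direction in all 15 alternatives and its call in 9. It was lost with no filter on low values (adjusted p = 0.102), with the replicate number as a block (0.0577) and in 4 of the 6 fits without 1 library. The count over all genes, 896, became 162 with no filter, 1562 with limma-voom (44.6% higher, against 53.3%) and 173 with the replicate block. It ran from 87 to 841 without 1 library. The fits that dropped vehicle replicate 1 or 2, or perhexiline replicate 2 or 3, gave 117, 142, 125 and 87. Calls of single genes lost in those fits stand beside this general drop. The median of all genes was 0.06 under total-fragment scaling and -0.01 under upper-quartile scaling, against 0.01. The count of called heme genes, 1, became 0 with no filter and 0 with the block, and ran from 0 to 1 without 1 library. Over all pathway lists the count, 13, became 3 with no filter, 26 with limma-voom and 4 with the block, and ran from 3 to 18 without 1 library. Deviations of same-numbered libraries correlated at -0.02, -0.10 and -0.04 across genes, and no library correlated best with its own number. These values show no deviation shared by number, but cannot tell whether the libraries were paired by culture or batch. Small differences changed sign, none of them past the threshold. Under total-fragment scaling Hmox2 came to 0.026, Blvrb to 0.050, Alad to 0.039, Slc48a1 to 0.037 and Pcbp2 to 0.023, and under upper-quartile scaling Uros came to -7.55e-04. Without 1 library, Hmox2 ran from -0.046 to 0.0061, Blvrb from -0.066 to 0.042, Uros from -0.043 to 0.077, Urod from -0.16 to 0.0022, Alad from -0.071 to 0.074, Slc48a1 from -0.091 to 0.061 and Cox10 from -0.11 to 0.020. The cause of these changes was not tested. Of the 10 genes, Uros had the fewest fragments, 110 to 162 per library. With no filter or with the block, 0 macrophage and 0 cardiomyocyte markers were lower.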

Other observations

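Globin transcripts were low but not at 0 in these cultures. The alpha globin gene Hba-a2, a close paralog of Hba-a1 so that reads may have been shared between both, went from 3.26, 4.58 and 2.44 FPKM with vehicle to 5.91, 6.51 and 6.28 with perhexiline (limma adjusted p = 0.0438). The call was kept without vehicle replicate 2 (0.0373) and lost without any 1 of the other 5 libraries (adjusted p up to 0.142). The summed level of 13 erythroid markers was 9.81 to 13.4 FPKM with vehicle and 14.8 to 16.3 with perhexiline. Of 3 tested markers 1 was higher and 0 lower, beside 3.55% and 3.11% of all tested genes. Alas2, in the same list, stood at 0.291, 0.262 and 0.368 FPKM with vehicle and 0.0661, 0.218 and 0.197 with perhexiline, so it lay on the opposite side.

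Nfs1, the cysteine desulfurase that supplies sulfur for iron-sulfur clusters, was under 1 FPKM in 3 libraries and well detected in the other 3, with both kinds in each group. It stood at 0.843, 13.1 and 0.57 FPKM in vehicle replicates 1, 2 and 3 and at 0.544, 18.9 and 9.27 FPKM in perhexiline replicates 1, 2 and 3, from 16, 276, 11, 13, 410 and 223 fragments. The highest vehicle library held 22.9 times the lowest, a ratio that 11 of 9281 genes with a mean of at least 5 FPKM reached. Nfs1 was singled out after its values were seen.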
